A study of Mus musculus with 15 samples.

Results

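The genes described here are those named for the proteins of the cytosolic ribosome. They were chosen by name alone, as genes of the array whose symbol begins with Rpl or Rps and a digit, together with Rplp0, Rplp1, Rplp2 and Rpsa. Kinases of the Rps6k family and pseudogene symbols were left out. In all, 88 of 20659 named genes met this rule, through 178 probes, and 86 of them could be tested. These 86 comprised 43 proteins of the large subunit, 31 of the small subunit and the 3 acidic stalk proteins. A further 7 were classed by name as paralogues of a core protein, and the probe of Rps4l among them reads a noncoding RefSeq transcript. The other 2, Rps19bp1 and Rpl7l1, carry the name but are no core subunit.

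The study measured RNA of frozen kidneys from male C57/BJ mice on 15 one-colour Agilent arrays. At 6 weeks of age the mice either lost the left kidney (uninephrectomy, UNX) or had a sham operation in which the kidney was handled and left in place. They were then fed a high-fat diet (HFD) or a low-fat chow diet (LFD), and the kidneys were taken 20 weeks after surgery. The groups were HFD-UNX (4 arrays), HFD-sham (3 arrays), LFD-UNX (4 arrays) and LFD-sham (4 arrays). No group carried an engineered allele, and each array held RNA of 1 mouse from groups of 6 mice.

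A ribosome is built from ribosomal RNA and matched amounts of most of its proteins, so cells make these proteins in step. Their mRNAs carry a pyrimidine-rich start, the 5′ terminal oligopyrimidine tract, through which growth signalling by mTORC1 sets how much of each mRNA is translated. After loss of a kidney the remaining one enlarges, mainly by growth of its tubule cells, and making more ribosomes is a known part of such growth. The comparison of 1 kidney with sham surgery therefore asks whether the mRNAs of the ribosome were more abundant in the remaining kidney at 20 weeks. Arrays measure the share of these mRNAs in the RNA, not their translation and not the amount of RNA per kidney.

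The tract itself can be read at the annotated start sites. Of the 86 tested genes, 65 had an entry in the RefSeq promoter table of build GRCm38.p6, with 77 start sites. A C at the start base followed by at least 4 bases that were each C or T, read on the transcribed gene's own strand, stood at 14 of 77 start sites (18.2%). The same pattern stood at 823 of 32851 start sites in the whole table (2.51%). The 30 bases around the start are shown for the genes on which the results below turn, with 15 bases before the start and with the run of pyrimidines that begins at the start base in capitals. The first set carries the tract.
Rps18, chr17:33955651-33955680, minus strand: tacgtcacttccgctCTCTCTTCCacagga
Rps6, chr4:86857353-86857382, minus strand: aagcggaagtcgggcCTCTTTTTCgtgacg
Rpl15, chr14:18270972-18271001, minus strand: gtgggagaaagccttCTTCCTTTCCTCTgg
Rps27, chr3:90213634-90213663, minus strand: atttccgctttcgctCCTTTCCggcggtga
Rpl32l, chr10:20208424-20208453, plus strand: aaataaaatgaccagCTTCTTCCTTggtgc
Rps21 (the first of its 2 annotated starts), chr2:180257364-180257393, plus strand: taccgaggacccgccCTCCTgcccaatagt
The second set has no such run at the annotated start base.
Rpl22l1, chr3:28805493-28805522, plus strand: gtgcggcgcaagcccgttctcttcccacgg
Rps19bp1, chr15:80264292-80264321, minus strand: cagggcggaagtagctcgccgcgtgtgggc
Rps25, chr9:44407699-44407728, plus strand: tttttccgacatcttagcgaggctgctgtg
Rplp0, chr5:115559452-115559481, plus strand: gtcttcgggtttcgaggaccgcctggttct
A start that is annotated a few bases off moves the tract out of this frame. With a C and 6 pyrimidines sought anywhere from 5 bases before to 10 bases after the start, the pattern stood at 31.2% of the members' start sites and at 5.4% of all.

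The levels below are log2 signals relative to the 75th percentile of the probes on the same array, so 0 is that percentile. All 86 genes were well above background on all 15 arrays, and no spot was saturated. Their mean levels ran from -1.87 for Rpl3l to 7.31, and 83 of 86 lay above 0. The 2 genes left out were Rpl10l and Rpl39l, the paralogues of Rpl10 and Rpl39 that are best known from the testis. The 2 probes of Rpl10l were well above background on 0 arrays, and the probe of Rpl39l was on 1 array. Markers of kidney cells such as Slc34a1, Lrp2, Umod and Aqp2 were well above background on 15 arrays.

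The median level of the 86 genes was 5.61, 5.60, 5.81 and 5.71 on the 4 HFD-UNX arrays. It was 5.95, 5.69 and 5.50 on the 3 HFD-sham arrays. The LFD-UNX arrays had 5.64, 5.56, 5.64 and 5.78, and the LFD-sham arrays 5.79, 5.65, 5.67 and 5.74. The group ranges overlapped, and the group means were 5.68 ± 0.10 in HFD-UNX, 5.71 ± 0.23 in HFD-sham, 5.65 ± 0.09 in LFD-UNX and 5.71 ± 0.07 in LFD-sham (SD over arrays). Under this scaling the 3 HFD-sham arrays were the widest apart, with a range of 0.45. The 75th percentile signal to which their levels are relative was 669, 1250 and 3275, so the dimmest array had the highest level and the brightest the lowest. The part of this in the results below was not tested.

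The picture differed under scalings that align the whole distribution of each array. After quantile normalisation, with levels on the arrays' own log2 scale, the median member level was 16.09 to 16.21 in HFD-UNX, against 16.27 to 16.31 in HFD-sham. It was 16.14 to 16.18 in LFD-UNX, against 16.26 to 16.29 in LFD-sham, so the arrays with 1 kidney lay below sham on both diets. After cyclic loess the groups stood apart on the low-fat diet, at 16.14 to 16.19 in LFD-UNX and 16.21 to 16.31 in LFD-sham, and overlapped on the high-fat diet. The HFD-sham arrays then spanned 0.04 with quantile normalisation and 0.16 with cyclic loess.

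**Figure D1:**
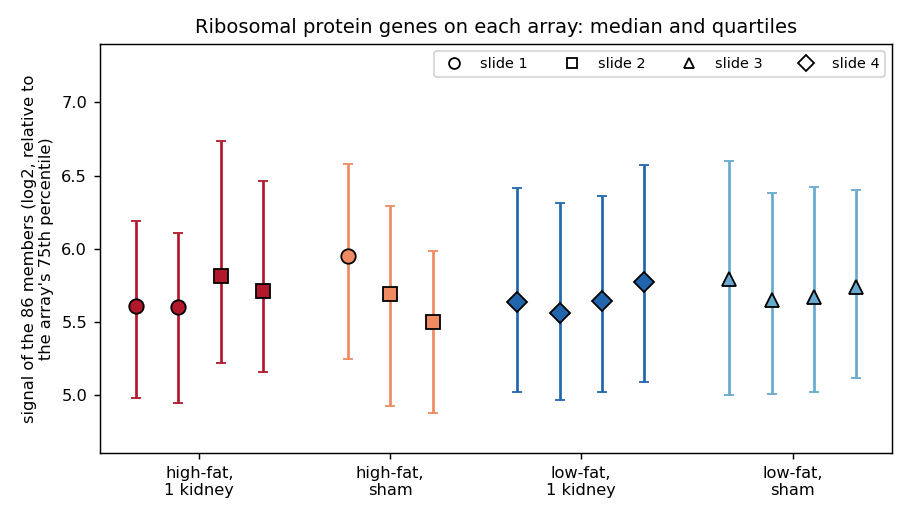
Median level (symbol) and quartiles (bars) of the 86 ribosomal protein genes on each of the 15 arrays, as log2 signal relative to the array's 75th percentile, with the slide of each array shown by the symbol. The HFD-sham arrays span 5.50 to 5.95, wider than the LFD-sham arrays at 5.65 to 5.79.

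The genes also moved together from array to array within a group. The deviations of 2 genes from their group means had a median correlation of 0.65 over the 3655 pairs of members and the 15 arrays, and 89.5% of the pairs were positive. That value is a description of arrays that share a scaling step, and it fell to 0.08 after quantile normalisation and to 0.20 after cyclic loess. The within-group SD of a member had a median of 0.215, against 0.268 over all genes tested. Rpl21, Rps6 and Rps27l had the narrowest spread over the 15 arrays. Rps21, Rps18 and Rpl4 had the widest.

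No ribosomal protein gene passed the test between 1 kidney and sham, under any scaling or setting tried. In limma with Benjamini-Hochberg adjustment over all 16055 genes, 0 of 86 members passed at an adjusted p under 0.05 on the low-fat diet, where 0.00623% of all genes did. On the high-fat diet 0 of 86 passed and 0% of all genes, and in the average over both diets 0 of 86 passed, where 0.0125% of all genes did. At an unadjusted p under 0.05 the members numbered 0 in each of these 3 comparisons, while all genes numbered 519 (3.23%) on the low-fat diet, 747 (4.65%) on the high-fat diet and 1036 (6.45%) in the average. A test that passes no gene does not show equal levels, so the intervals are given next.

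Averaged over diets, the difference between 1 kidney and sham ran from -0.20 to 0.17 on the log2 scale over the 86 genes, with a median of 0.02, the same as over all genes tested, and 54 of 86 genes were above 0, beside 54.5% of all genes. With quantile normalisation the median was -0.05 and 10 of 86 genes were above 0, with cyclic loess -0.03 and 15 of 86, so the direction of the list turned with the scaling. Quantile normalisation put 6 members at an unadjusted p under 0.05, beside 1060 of all 16055 genes. All 6 were lower with 1 kidney, and 0 passed after adjustment. The upper end of the 95% interval of a gene lay below a 1.5-fold rise for all 86 genes and below a 1.25-fold rise for 63 of them. The whole interval lay within 1.5-fold in either direction for 85 genes, the exception being Rps21. On the low-fat diet alone the upper end lay below 1.5-fold for 85 genes, and on the high-fat diet alone for 77 genes. These intervals are for single genes, carry no adjustment for their number and leave out the slide. With the slide as a random block the upper end in the average lay below 1.5-fold for 85 genes and below 1.25-fold for 34. On the low-fat diet, where surgery and slide cannot be told apart, it then lay below 1.5-fold for 50 genes.

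**Figure D2:**
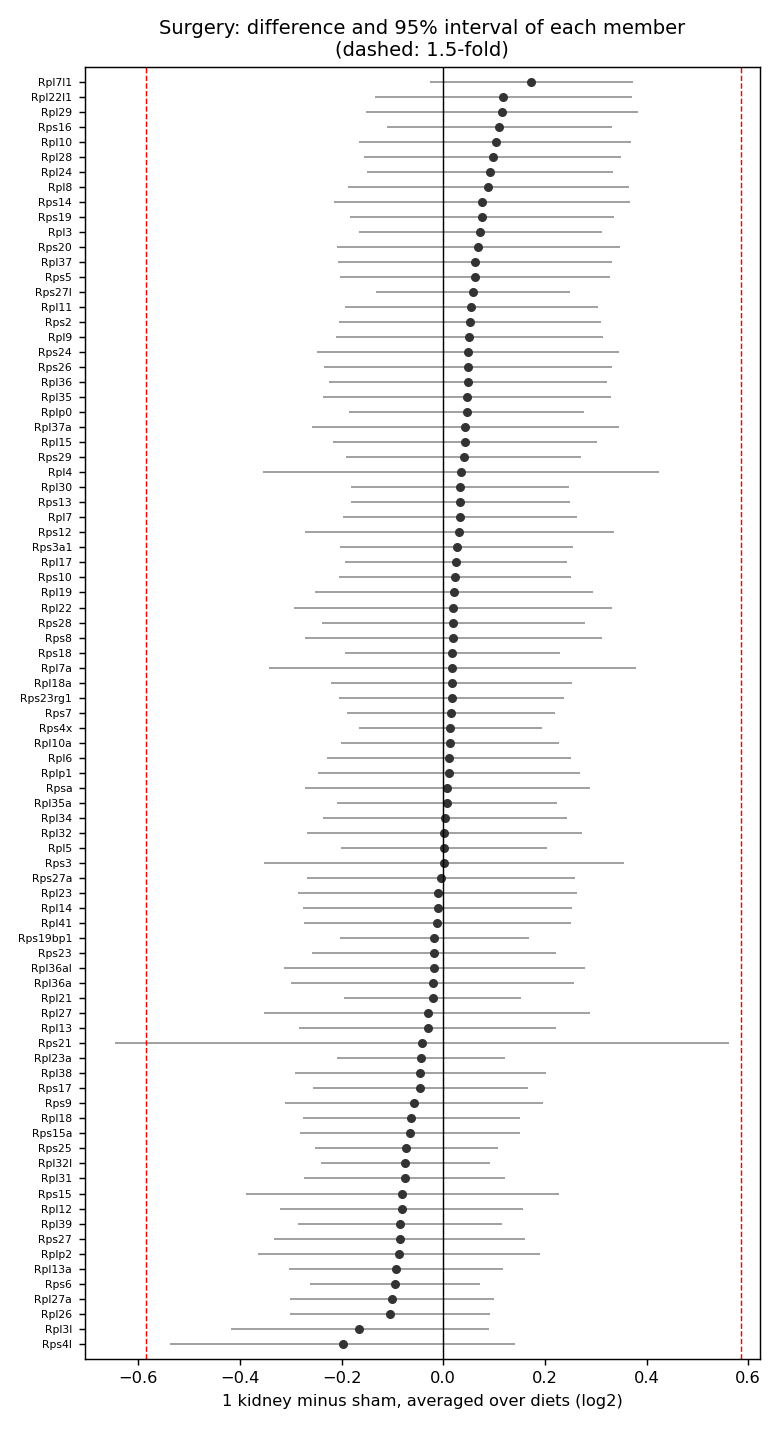
Difference between 1 kidney and sham, averaged over diets, for 85 of the 86 genes (log2; point) with its 95% interval (line), and dashed lines at a 1.5-fold difference. Every interval shown includes 0, and of these only the interval of Rps21 crosses a dashed line.

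Rpl7l1, named as a relative of the large subunit protein Rpl7, had the lowest p of the averaged comparison. Its levels were -1.19, -1.08, -1.04 and -1.20 in HFD-UNX kidneys, against -1.48, -1.48 and -1.13 in HFD-sham kidneys. They were -1.32, -1.32, -1.15 and -1.06 in LFD-UNX kidneys, against -1.57, -1.34, -1.32 and -1.09 in LFD-sham kidneys. The groups overlapped on both diets, and the averaged log2 difference was 0.17 ± 0.09 (SE; limma unadjusted p = 0.0846, adjusted p = 0.841). Rps16 of the small subunit and the paralogue Rpl22l1 had the next lowest p among genes with a positive difference, at 0.11 and 0.12. The muscle-type paralogue Rpl3l, the paralogue Rps4l and Rps6 led among genes with a negative one, at -0.16, -0.20 and -0.10. None passed the test.

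Rps6, the substrate of the S6 kinases downstream of mTORC1, had 5.77, 5.88, 5.80 and 5.69 in HFD-UNX kidneys and 6.20, 5.87 and 5.83 in HFD-sham kidneys. It had 5.68, 5.69, 5.75 and 5.84 in LFD-UNX kidneys and 5.83, 5.69, 5.70 and 5.78 in LFD-sham kidneys. The HFD-sham kidneys lay just above the LFD-sham kidneys, and the groups overlapped between surgeries on both diets. Its differences between 1 kidney and sham were -0.18 on the high-fat diet and -0.01 on the low-fat diet. Array mRNA levels do not report its phosphorylation.

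On the low-fat diet the lowest p among the members belonged to Rpl39, at -0.17 ± 0.13 (SE; limma unadjusted p = 0.191, adjusted p = 1). Rpl36a, at -0.20, was the 1 member of 86 whose groups did not overlap (1.16%), where 4.57% of all genes had such groups. Its levels were 4.13, 4.04, 4.04 and 4.24 in LFD-UNX kidneys, against 4.39, 4.27, 4.31 and 4.28 in LFD-sham kidneys. Rps27 followed at -0.17, and Rpl8 (0.19), Rpl7l1 (0.11) and Rps23rg1 (0.10) led among genes with a positive difference. The median over members was -0.03 with 27 of 86 above 0, against 0.01 and 52.2% above 0 for all genes. With quantile normalisation the member median was -0.06. The 4 LFD-UNX arrays lay on 1 slide and the 4 LFD-sham arrays on another, so surgery and slide cannot be told apart there.

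On the high-fat diet Rpl3l had the lowest p, at -0.35 ± 0.17 (SE; limma unadjusted p = 0.0619, adjusted p = 0.999). Rps6 and Rpl13a followed at -0.18 and -0.19. Among genes with a positive difference, Rpl7l1 was at 0.23 and Rpl3 at 0.23. The median over members was 0.06 with 60 of 86 above 0, against 0.02 and 54.7% above 0 for all genes. No member had groups that did not overlap, beside 2.93% of all genes. That median rested on single arrays, since it was 0.20 without HFD-sham replicate 1 and -0.08 without HFD-sham replicate 3. It also turned to -0.05 with quantile normalisation and -0.04 with cyclic loess.

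The high-fat arrays lay on 2 slides that each held both kinds of surgery, and the slides gave opposite answers. On slide 1, with 2 HFD-UNX arrays and 1 HFD-sham array, the median member difference was -0.40 and 1 of 86 genes was higher with 1 kidney. On slide 2, with 2 arrays of each, it was 0.36 and 78 of 86 genes were higher. The corresponding medians over all genes were -0.04 and 0.06. With the slide as a fixed block the median was 0.07 and 0 members passed.

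The test of whether the surgery difference depended on diet passed 0 of 86 members and 0% of all genes. At an unadjusted p under 0.05 it called 0 members and 219 genes in all (1.36%). The median interaction was 0.07 on the log2 scale over members, with 63 of 86 above 0, and 0.02 over all genes, of which 53.2% were above 0. It was 0.21 without HFD-sham replicate 1. Among positive values Rpl15 and Rpl36a were at 0.37 and 0.36 (limma unadjusted p = 0.15 and 0.185, adjusted p = 1 for both), and Rpl3l, Rps6 and Rpl13a among negative ones at -0.38, -0.18 and -0.20. The interval of a single gene's interaction reached, at the median, 0.50 to either side of the estimate.

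**Figure D3:**
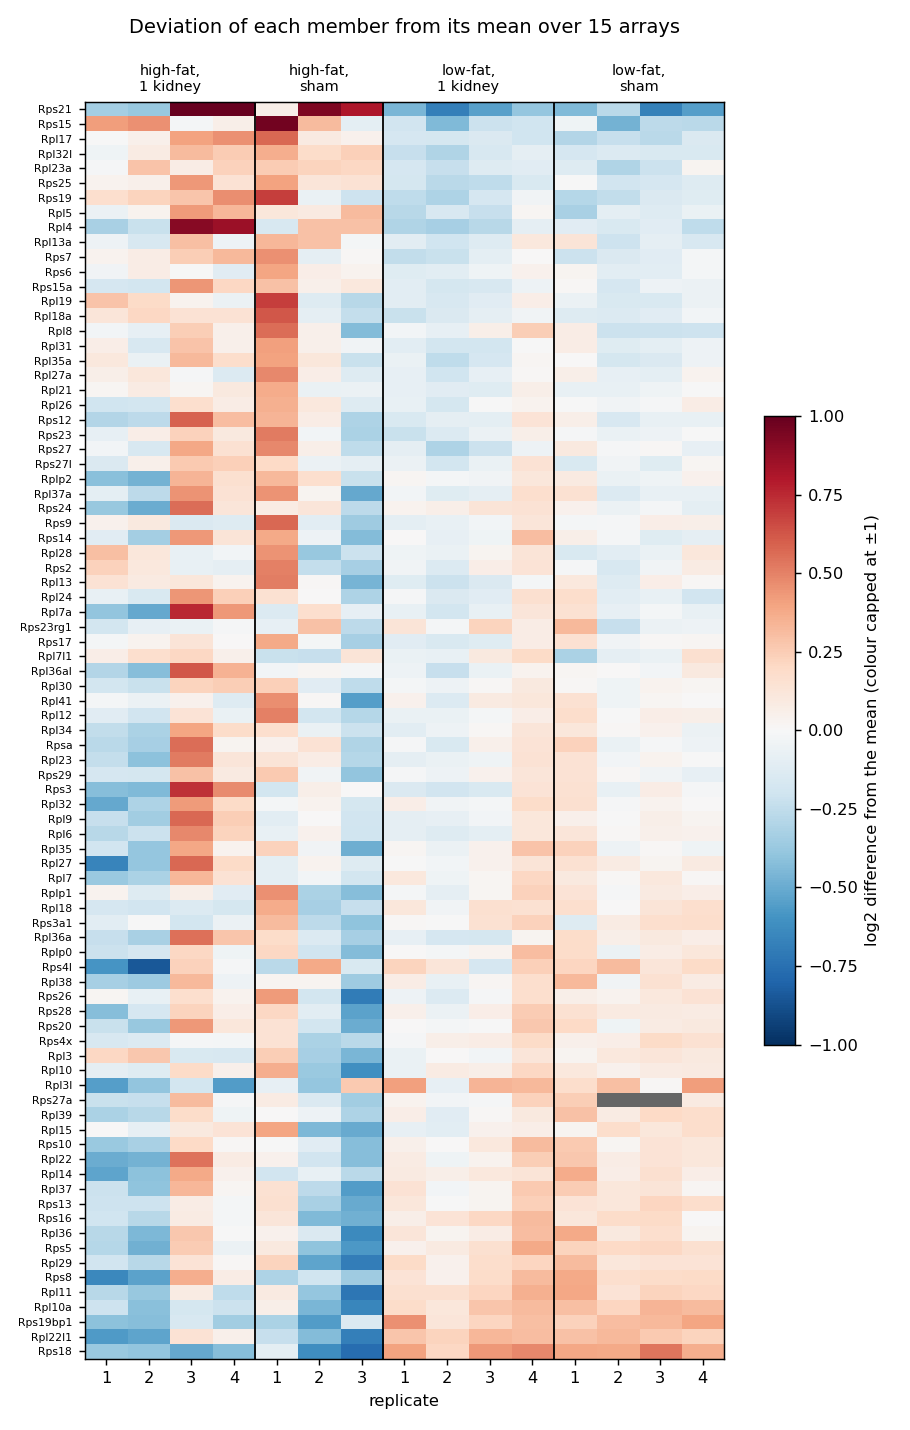
Deviation of 85 of the 86 genes (rows, ordered by the HFD minus LFD difference in sham mice) from its own mean over the 15 arrays (columns, by group and replicate), on the log2 scale with the colour capped at 1 either way and missing values of Rps27a in dark grey. HFD-UNX replicates 1 and 2 lie below replicates 3 and 4 for many genes, and Rps21 and Rpl4 at the top show the widest step between them.

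Diet gave calls in both directions among the members, and whether their share of calls lay below or above that of all genes depended on the scaling. In sham mice 8 of 86 members (9.3%) passed, 2 higher and 6 lower on the high-fat diet, where 13.9% of all genes passed (6.48% higher and 7.41% lower). In mice with 1 kidney 7 of 86 (8.14%) passed, 2 higher and 5 lower, where 14.2% of all genes passed (7.67% higher and 6.52% lower). At an unadjusted p under 0.05 there were 20 members in sham mice (23.3%) and 17 in mice with 1 kidney (19.8%), beside 30.2% and 29.7% of all genes. Differences above 0 were found for 34 members in sham mice (39.5%) and 43 in mice with 1 kidney (50%), beside 48.2% and 48.8% of all genes. The median member difference was -0.06 in sham mice and 0.00 in mice with 1 kidney, against -0.02 and -0.01 over all genes. The groups did not overlap for 22 members in sham mice (25.6%), where 26.2% of all genes had such groups, and for 19 members in mice with 1 kidney (22.1%), where 22.5% had them. All high-fat arrays were scanned on 1 day and all low-fat arrays on another, so diet and scan day cannot be told apart in any value that follows.

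In whole kidney, fewer cells that carry an mRNA and less of it per cell cannot be told apart either. All 9 lymphocyte markers on the list were measured, and their summed level was 3.39 to 4.55 in HFD-UNX kidneys, against 1.97 to 2.31 in LFD-UNX kidneys. It was 2.75 to 4.04 in HFD-sham kidneys, against 2.03 to 2.34 in LFD-sham kidneys (linear signal relative to the 75th percentile). All 6 adipocyte markers were measured too, with sums of at most 20.8 in HFD-sham kidneys and of 26.0 to 41.3 in LFD-sham kidneys. With 1 kidney the sums overlapped, at up to 19.3 in HFD-UNX and 15.4 to 25.8 in LFD-UNX kidneys. Of the 6 adipocyte markers, 6 were lower on the high-fat diet in sham mice, but 4 were higher and 2 lower in mice with 1 kidney. On the low-fat diet the adipocyte sums also stood apart between surgeries, with 6 markers lower with 1 kidney. On the high-fat diet 5 were higher with 1 kidney and 1 lower. Podocyte sums, over 3 markers, were lower on the high-fat diet, at 8.23 to 8.9 in HFD-sham against 9.57 to 13 in LFD-sham kidneys. With 1 kidney they were 5.92 to 9.14 in HFD-UNX against 9.29 to 10.1 in LFD-UNX kidneys. In both comparisons 2 of the markers were lower and 1 was higher. Distal tubule sums stood apart between diets with 1 kidney only. They were 16.4 to 20.1 in HFD-UNX against 9.27 to 15.4 in LFD-UNX kidneys, with 2 of 3 markers higher. The part of these cell type markers in the diet and surgery differences was not tested.

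Rps18, a small subunit protein whose mRNA often serves as a reference in quantitative PCR, showed the lowest p of all members in both diet comparisons. Its levels were 4.69, 4.16 and 4.02 in HFD-sham kidneys, against 5.17, 5.17, 5.32 and 5.15 in LFD-sham kidneys. In mice with 1 kidney they were 4.41, 4.39, 4.27 and 4.36 on the high-fat diet, against 5.19, 4.99, 5.22 and 5.27 on the low-fat diet. Every high-fat array lay below every low-fat array. The log2 difference was -0.91 ± 0.15 in sham mice (SE; 1.88-fold lower, limma adjusted p = 0.0026) and -0.81 ± 0.13 in mice with 1 kidney (1.75-fold lower, adjusted p = 0.00242).

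The other probe of Rps18 ran the opposite way. It had 4.93, 4.31 and 3.91 in HFD-sham kidneys, against 3.88, 3.88, 3.95 and 3.98 in LFD-sham kidneys. The HFD-UNX kidneys had 4.62, 4.59, 4.35 and 4.32, against 3.85, 3.76, 3.83 and 3.98 in LFD-UNX kidneys. Its log2 difference was 0.46 in sham mice (limma adjusted p = 0.113) and 0.61 in mice with 1 kidney (limma adjusted p = 0.0289). The direction of Rps18 therefore depended on the probe, and the fall holds for its brightest probe only. Rps18 and other ribosomal protein genes have many processed pseudogenes, and cross-hybridisation to them was not tested.

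Rps25, a small subunit protein, differed by probe as well. The brightest probe had 5.34, 5.36, 5.74 and 5.45 in HFD-UNX kidneys, against 5.13, 5.04, 5.05 and 5.15 in LFD-UNX kidneys, and passed at 0.38 ± 0.12 (SE; limma adjusted p = 0.0417). The second probe had -3.40, -3.38, -2.84 and -3.18 in HFD-UNX kidneys, against -2.48, -2.87, -2.55 and -2.45 in LFD-UNX kidneys. It gave -0.61 (limma adjusted p = 0.0175), so each probe passed with its own sign.

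**Figure D4:**
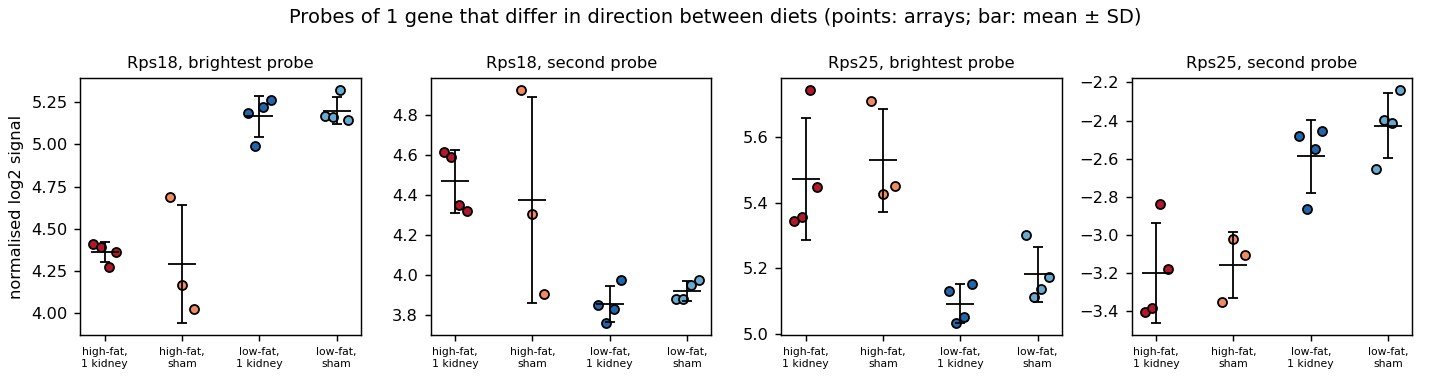
Normalised log2 signal of the brightest and second probe of Rps18 and of Rps25 in the 4 groups, where points are arrays and bars are mean ± SD. The brightest probe of Rps18 was lower on the high-fat diet by 0.81 in mice with 1 kidney and its second probe higher by 0.61, and the 2 probes of Rps25 also ran in opposite directions.

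Of the genes that passed, 5 did so in both kinds of mice, which is 62.5% of the 8 in sham mice and 71.4% of the 7 in mice with 1 kidney. These comparisons use different arrays but the same pair of scan days. The same overlap was not counted over all genes, so these shares have no background to be read against. The 5 were Rps18, Rps19bp1, Rpl10a, Rpl22l1 and Rpl32l. Each kept its direction between them. The calls of Rpl10a, Rpl22l1 and Rpl32l in mice with 1 kidney were each lost in 11 of the alternative settings tried, of 21, 20 and 20.

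Rps19bp1, which encodes a protein that binds Rps19 and the deacetylase Sirt1 and is no core subunit, had 1.63, 1.40 and 1.81 in HFD-sham kidneys, against 2.19, 2.26, 2.28 and 2.34 in LFD-sham kidneys. In mice with 1 kidney it had 1.54, 1.52, 1.79 and 1.61 on the high-fat diet, against 2.41, 2.07, 2.17 and 2.25 on the low-fat diet. No high-fat array reached the lowest low-fat array. It fell by 0.66 in sham mice (limma adjusted p = 0.00601) and by 0.61 in mice with 1 kidney (limma adjusted p = 0.00498).

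Rpl22l1, the paralogue of Rpl22, had 3.59, 3.39 and 3.13 in HFD-sham kidneys, against 4.12, 4.14, 4.08 and 4.04 in LFD-sham kidneys. The HFD-UNX kidneys had 3.25, 3.30, 3.96 and 3.87, against 4.10, 4.05, 4.16 and 4.13 in LFD-UNX kidneys. The groups stood apart in both kinds of mice, and the 2 higher HFD-UNX arrays were those on slide 2. The differences were -0.73 (limma adjusted p = 0.0155) and -0.51 (limma adjusted p = 0.0463). Rpl22 itself was at -0.34 and -0.16 and did not pass.

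Rpl10a, a large subunit protein, had 6.58, 6.07 and 5.88 in HFD-sham kidneys, against 6.83, 6.75, 6.87 and 6.84 in LFD-sham kidneys. Its difference was -0.65 in sham mice (limma adjusted p = 0.0129) and -0.48 in mice with 1 kidney (limma adjusted p = 0.0326). Its second probe gave -0.14 and -0.11 and did not pass. Rpl32l, named as a relative of Rpl32, was the shared gene that rose. It had 5.69, 5.50 and 5.56 in HFD-sham kidneys, against 5.15, 5.19, 5.17 and 5.17 in LFD-sham kidneys. The differences were 0.42 (limma adjusted p = 0.0282) and 0.35 (limma adjusted p = 0.0422).

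Calls made in sham mice alone included Rpl11 and Rpl23a, which lost the call in 12 and 11 of 20 alternative settings. Rpl11, which with Rpl5 and 5S RNA can bind the p53 regulator Mdm2, had 6.80, 6.32 and 5.98 in HFD-sham kidneys, against 7.09, 6.84, 6.93 and 6.91 in LFD-sham kidneys, and fell by 0.58 (limma adjusted p = 0.0384). Rpl5 was at 0.33 in the same comparison and did not pass (limma adjusted p = 0.131). Rpl23a, which lies at the exit of the tunnel for the new protein chain, had 5.28, 5.26 and 5.24 in HFD-sham kidneys, against 4.90, 4.73, 4.82 and 5.06 in LFD-sham kidneys, and rose by 0.38 (limma adjusted p = 0.0391). In mice with 1 kidney the further call was Rpl3l, the paralogue of Rpl3 known from heart and skeletal muscle. Its levels were -2.42, -2.27, -2.06 and -2.43 in HFD-UNX kidneys, against -1.46, -1.95, -1.53 and -1.55 in LFD-UNX kidneys. It fell by 0.67 (limma adjusted p = 0.0149), while Rpl3 was at 0.03 and did not pass.

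**Figure D5:**
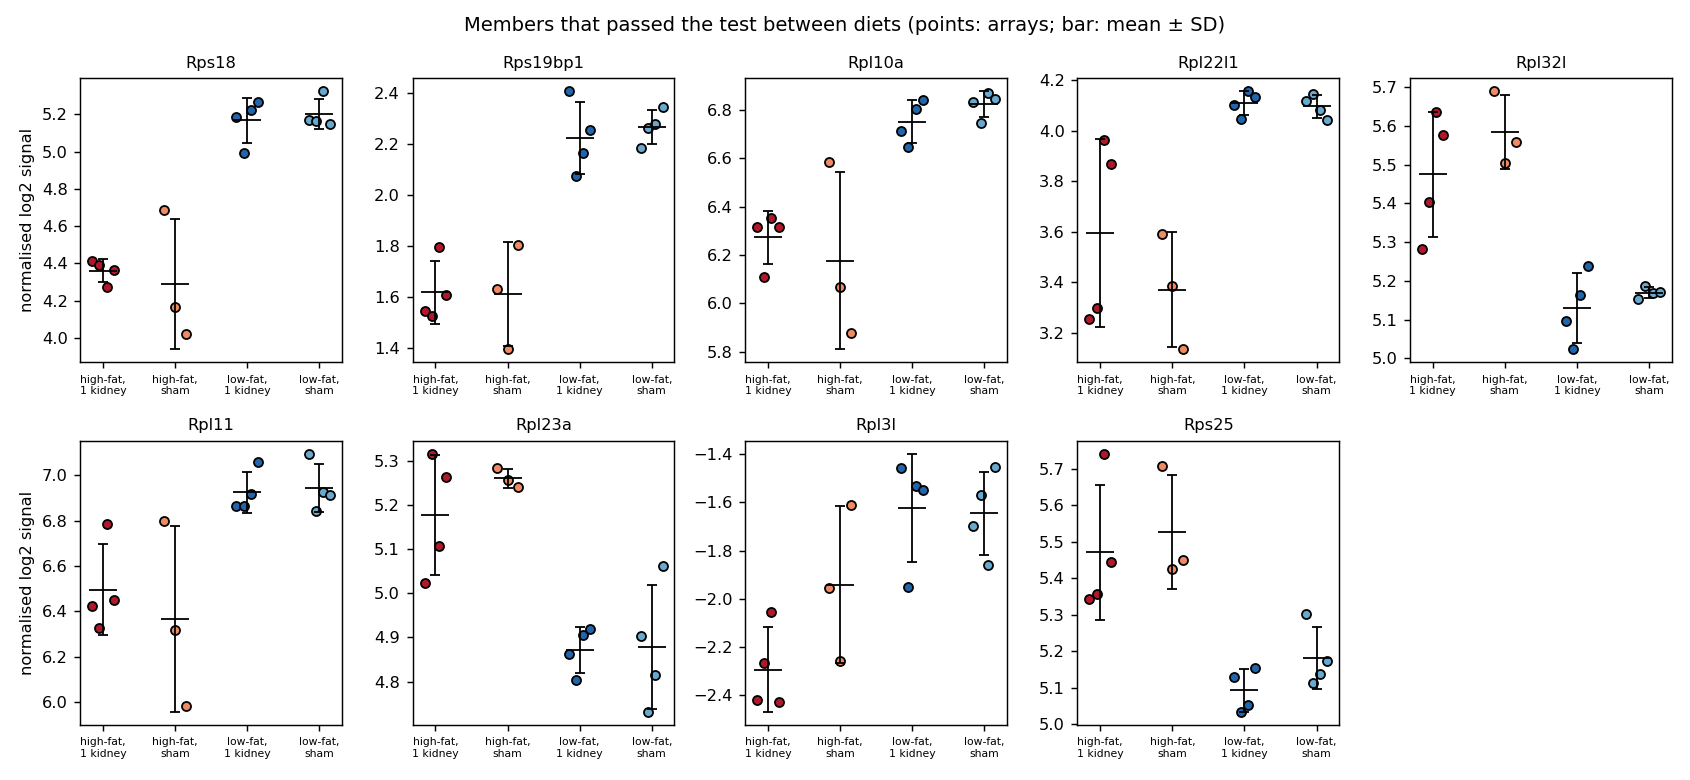
Normalised log2 signal of 9 of the 10 members that passed in at least 1 diet comparison, where points are arrays and bars are mean ± SD in each of the 4 groups, each panel with its own axis. The HFD and LFD arrays do not overlap in sham mice for any of these genes but Rpl3l, and the differences there ran from Rps18 at -0.91 to Rpl32l at 0.42.

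Among further probes of the genes that passed, 5 of 6 had the same sign as the brightest probe in sham mice and 1 of 3 in mice with 1 kidney. None of them passed in the same direction. Over all members with more than 1 probe, 57 of 87 further probes (65.5%) had the sign of the brightest probe in sham mice. Counted by probe, 16 of 173 (9.25%) passed in sham mice, where 10.9% of all probes passed, and 12 (6.94%) in mice with 1 kidney, where 12.2% passed. For surgery 0 of 173 member probes passed, beside 0.00354% of all probes on the low-fat diet and in the average, and 0% on the high-fat diet and for the dependence on diet.

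The count of calls between diets also moved with the arrays and the settings. Without HFD-sham replicate 1 it was 17 in sham mice, all lower on the high-fat diet (19.8%, beside 13.1% of all genes), and the median difference was -0.20. It was 5 without HFD-sham replicate 2 (5.81%, beside 7.54% of all genes). It was also 5 without any 1 of LFD-sham replicates 1, 2 and 3 (5.81%, beside 7.59% to 8.78%). With the slide as a random block 0 members passed in either comparison, and 14 and 26 genes in all. After quantile normalisation 19 members passed in sham mice (22.1%, beside 15.2% of all genes) and 18 in mice with 1 kidney (20.9%, beside 15.6%), 13 of them lower in each. These shares lay above the background, where those of the 75th percentile scaling lay below it, and neither difference was tested.

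Rps21, a small subunit protein, had the largest difference of all members and did not pass. Its levels were 3.19, 3.15, 5.11 and 4.87 in HFD-UNX kidneys, against 3.08, 2.85, 2.99 and 3.15 in LFD-UNX kidneys. They were 3.59, 4.47 and 4.34 in HFD-sham kidneys, against 3.09, 3.26, 2.86 and 2.98 in LFD-sham kidneys. The arrays at 4.34 and above were the 4 on slide 2, and the 3 on slide 1 were at 3.15 to 3.59. The diet differences were 1.08 ± 0.41 in sham mice (SE; limma adjusted p = 0.0944) and 1.07 ± 0.38 in mice with 1 kidney (limma adjusted p = 0.0784).

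Within the high-fat diet, and under the 75th percentile scaling, slide 1 and slide 2 differed for more members than any labelled comparison did. In the same limma design with the slide as a term, 19 of 86 members (22.1%) passed, 7 higher and 12 lower on slide 1, where 31% of all genes passed (14.6% higher and 16.4% lower). Rps21 was at -1.42 (limma adjusted p = 0.000264) and Rpl4, of the large subunit, at -0.88 (limma adjusted p = 0.000657). Rps3 was at -0.71 and Rpl7a at -0.70, while Rpl3 was at 0.49 and Rps15 at 0.59. Rpl4 had 3.97 to 4.14 on slide 1 and 4.59 to 5.21 on slide 2, and Rps3 had 3.80 to 4.05 on slide 1 and 4.24 to 4.97 on slide 2.

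Several well-known members did not pass between diets. Rplp0, the base of the stalk and a common reference gene, had 7.37, 6.97 and 6.73 in HFD-sham kidneys, against 7.35, 7.10, 7.23 and 7.28 in LFD-sham kidneys, a difference of -0.22. Its partners Rplp1 and Rplp2 were at -0.17 and 0.08, and Rpsa, also known as the laminin receptor, at -0.06. Rps19, whose mutation causes Diamond-Blackfan anaemia in humans, was at 0.34 in sham mice and 0.47 in mice with 1 kidney (limma adjusted p = 0.0718). Rpl13a, another reference gene, was at 0.29 and 0.09. Among the paralogues, Rps27l was at 0.09 and 0.14 beside Rps27 at 0.09 and 0.25, and Rpl36al at -0.03 and 0.14 beside Rpl36a at -0.20 and 0.17. Rps4l was at -0.22 and -0.41 beside Rps4x at -0.26 and -0.16. None of these passed.

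Genes with the tract at the start base and those without it were set side by side as a description. In sham mice the 14 genes with it had a median diet difference of 0.04 and the 51 without it -0.06. In mice with 1 kidney these medians were 0.05 and 0.02. Genes without the tract at the start base may carry one a few bases away. In the average over diets the median surgery difference was -0.03 with it and 0.01 without it. Rps18 by its brightest probe and Rpl32l, both with the tract, passed with opposite signs. The second probe of Rps18 had the sign of Rpl32l.

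The other parts of the protein-making machinery were counted in the same fit. For surgery, on either diet or averaged, 0 genes passed in any of the lists that follow, where at most 0.0125% of all genes passed. At an unadjusted p under 0.05 in the average, 6.45% of all genes were found. The 36 measured ribosome assembly factors had 2 such genes, and RNA polymerase I with its factors 1 of 15. Growth signalling by mTORC1 and Myc had 0 of 25, and translation factors and other mRNAs with a known tract 0 of 19. Proliferation genes had 1 of 16. The mitochondrial ribosomal proteins, which belong to a separate ribosome, had a median of 0.05, with 66 of 77 above 0. Over all genes the median was 0.02, with 54.5% above 0. Of the 77, 1 gene had an unadjusted p under 0.05. These lists were read under the 75th percentile scaling only, and their direction under other scalings was not tested.

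Between diets these lists moved in both directions, where 13.9% of all genes passed in sham mice and 14.2% in mice with 1 kidney. Of all genes, 6.48% rose and 7.41% fell in sham mice, and 7.67% rose and 6.52% fell in mice with 1 kidney. No list was tested against these shares. Of the 36 assembly factors, 1 rose and 5 fell in sham mice, and 1 rose and 4 fell in mice with 1 kidney. Nop56, a core protein of box C/D particles, fell by 0.81 and 0.73, Nop10 of the box H/ACA particles by 0.65 and 0.56, and Bysl by 0.68 and 0.39, while the kinase Riok1 rose by 0.84 and 0.55 (limma adjusted p from 0.00356 to 0.0442). Of the 19 mRNAs with a known tract, 4 rose and 2 fell in sham mice, and 2 rose and 1 fell in mice with 1 kidney. Eef1a1, which brings transfer RNA to the ribosome, rose by 0.71 and 0.68 (limma adjusted p = 0.00776 and 0.005). Npm1 rose by 0.50 and 0.36, and Eif3h fell by 0.50 and 0.45.

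The counts that follow stand beside the same shares of all genes, 13.9% in sham mice and 14.2% in mice with 1 kidney. Of the 25 genes of mTORC1 and Myc signalling, 1 rose and 2 fell in each kind of mice. Mtor, the kinase itself, rose by 0.76 and 0.56, and Eif4ebp1, the translation repressor it inactivates, fell by 0.57 and 0.68 (limma adjusted p from 0.00324 to 0.0377). Of 15 polymerase I genes 0 rose and 2 fell in sham mice, and 2 rose and 2 fell in mice with 1 kidney. Polr1d fell by 0.66 and 0.56. Ubtf, which activates ribosomal DNA, rose 2.01-fold in mice with 1 kidney (limma adjusted p = 0.00258) and was 1.37-fold higher in sham mice without passing (limma adjusted p = 0.109). The test of the difference between the 2 values did not call it. Of the 16 proliferation genes, 1 rose and 0 fell in sham mice, and 2 rose and 1 fell in mice with 1 kidney. Of the 77 mitochondrial ribosomal proteins, 5 rose and 5 fell in sham mice, and 4 rose and 2 fell in mice with 1 kidney. Of 13 housekeeping genes, 1 rose and 1 fell in sham mice, and 1 rose and 0 fell in mice with 1 kidney. B2m rose by 0.75 and 0.90. Of the 7 measured p53 targets, 0 passed in sham mice and Bbc3 fell by 0.47 in mice with 1 kidney.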

How the data were processed

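The authors' deposited intensity signals were produced, per the file headers, by version 10.7.3.1 of Agilent's Feature Extraction (the submitters' processing notes give 10.7), which subtracts background and detrends within an array. Spots flagged as outliers were left out (74 to 273 per array), spots of a probe were averaged on the log2 scale, and the 75th percentile of the 39429 non-control probes was subtracted. A probe stayed in when 3 or more arrays flagged it as well above background (28244 probes), and the brightest per gene was tested. Names came from RefSeq accessions through a gene table. The sequences are from RefSeq's promoter table. limma 3.58.1 in R 4.3.3 was fitted to 16055 genes on 15 arrays, with 6 comparisons, each adjusted by Benjamini-Hochberg. The fit was also run on simulated data with independent noise, equal spread in all groups and no slide effect. That run therefore does not cover slide differences, unequal spreads or genes that move together. Of the members, Rps27a lacks values on 2 LFD-sham arrays, which its fit leaves out.

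From 60.5% to 73.4% of spots were well above background. The number of arrays limits the precision. Labels number the mice, and p-values reflect the spread between their arrays, pooled over the 4 groups. In the high-fat groups this spread includes the difference between 2 slides, while each low-fat group lay on 1 slide. The spreads that were pooled differed. The array medians had an SD of 0.10 in HFD-UNX, 0.23 in HFD-sham, 0.09 in LFD-UNX and 0.07 in LFD-sham.

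The members and lists were chosen with earlier results of these data known. Named were members that passed (up to 6 per direction), the lowest p where few passed, a panel of paralogues and well-known members, and those of widest and narrowest spread. The genes named for the slide difference were chosen after their values were seen. Of other lists, up to 3 passing genes per direction were named.

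Same-numbered arrays correlated in deviations from group means at 0.435, 0.122 and 0.331 for surgery on the high-fat diet, and at -0.153 to 0.08 in the other comparisons. The numbers could therefore be read as pairs for the first only, on the basis of these data, not the labels. The reported fit used no pairs, and replicate numbers entered only as a block in an alternative setting. The high-fat arrays numbered 1 shared slide 1 and those numbered 3 shared slide 2, while those numbered 2 lay on different slides. Pairs of mice and a shared slide cannot be told apart in these correlations. Alternatives were quantile and cyclic loess scaling, normexp background correction (offset 50, on the median spot signal, since the files used hold no mean signal column), other probe filters, the mean or second probe, blocks and leaving out arrays. A few genes counted in the totals are not reported here by name.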

Additional observations from a re-analysis of the deposited data

Results flagged for a closer look

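In 6 of 111 groups of 4 arrays tested, among 36 named genes and the array medians, 1 array lay far from the other 3 by Dixon's test at 95%. That is 5.41%, and chance flags about 5% of groups, so 1 in 20. Rpl10a was at 6.11 in HFD-UNX replicate 2, against 6.32 to 6.35 in the others of that group. Rplp0 was at 7.47 in LFD-UNX replicate 4, against 7.14 to 7.20, and Rps3 was at 4.38 in the same array, against 4.04 to 4.09. Rpl8 was at 6.62 in LFD-sham replicate 1, against 6.33 to 6.34, and Rpsa was at 6.93 in the same array, against 6.63 to 6.69. Rps18 was at 5.32 in LFD-sham replicate 3, against 5.15 to 5.17. The HFD-sham group, with 3 arrays, was not tested.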

How the results depend on the processing

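Every comparison of surgery and the test of its dependence on diet passed 0 members in all 99 alternatives run, a count that says little about stability because it cannot fall. The diet counts moved, and the causes were not tested. In sham mice the count of 8 became 19 with quantile normalisation (2445 of all genes, 2230 in the reported fit), 16 with cyclic loess (2499) and 2 with normexp (161). It became 0 with the slide as a random block (14, correlation 0.406) and 14 with the slide as a fixed block in the high-fat groups (3113). Over the 77 core subunits alone it was 5 (6.49%, beside 13.9% of all genes). Only 51 members had a second probe. With it 5 passed in sham mice (9.8%, beside 13.9% of all genes) and 7 in mice with 1 kidney (13.7%, beside 14.2%). In mice with 1 kidney the count of 7 became 18, 13, 2 and 0 under quantile normalisation, cyclic loess, normexp and the random block (2498, 2537, 316 and 26 of all genes, 2278 in the reported fit). It was 3 over the core subunits (3.9%, beside 14.2% of all genes), and 4 with the replicate number as a block (4.65%, beside 13.3%). Replicate numbers do not pair the diet groups, and the block changed no other count of calls by over 1.5 times. With the block the median for surgery on the high-fat diet was 0.03. The second probe, the core set and the intervals under other settings were chosen after seeing the data. Leaving out 1 array at a time gave 5 to 17 calls in sham mice (5.81% to 19.8%), where 7.54% to 14.8% of all genes passed. In mice with 1 kidney it gave 3 to 8 calls (3.49% to 9.3%), where 8.08% to 20.6% of all genes passed. The median differences then ran from -0.195 to 0.047 for diet in sham mice and from -0.10 to 0.049 in mice with 1 kidney, from -0.075 to 0.196 for surgery on the high-fat diet, and from -0.035 to 0.208 for the interaction. Of 43 alternatives for the diet counts, 19 stayed within 1.5 times and 24 did not. Of the medians, 138 moved by less than the SD of the array medians within groups (0.124) and 4 by more, and small medians changed sign among the 138.

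For the 15 gene calls reported, 201 of 300 alternatives kept the call, 95 lost it and 4 reversed the direction. Rps25 in mice with 1 kidney was -0.12 with the mean of its probes and -0.61 with the second probe. Rps18 was 0.61 with its second probe in mice with 1 kidney and 0.46 in sham mice. In mice with 1 kidney the call was lost in 12 of 21 alternatives for Rps25 and in 11 each for Rpl10a, Rpl22l1 and Rpl32l. In sham mice it was lost in 12 of 20 for Rpl11, 11 of 20 for Rpl23a and 8 of 19 for Rpl32l. Rps19bp1 kept its call in 17 of 19 in sham mice and 19 of 20 in mice with 1 kidney. Each tested member was well above background on all 15 arrays.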
